A study of Homo sapiens with 4 samples.

Results

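The genes described here are 8 human genes that repair, or trigger a response to, DNA alkylated by temozolomide (TMZ), the drug used first against glioblastoma (GBM). They are MGMT, MSH3, MSH6, PMS2, MPG, ALKBH2, ALKBH3 and PARP1, chosen by name for their known role in the response to the drug, and found through the Ensembl IDs of the deposited tables and the symbols of GENCODE 29. They are 8 of the 58213 gene IDs present in all 4 tables. In comparisons, 13351 genes with a mean normalized CPM (a count scaled to the size of its library) of at least 1 over the 4 libraries were used, among them 7 of the 8 repair genes, since MGMT did not reach that mean.

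The study asked which genes follow HDAC6, a cytoplasmic deacetylase, and LINC00461, a long noncoding RNA, in GBM cells that do or do not resist TMZ. RNA from 4 cultures was sequenced as strand-specific libraries, 1 per condition. U87MG is an established human GBM line, and R-U87MG is its TMZ-resistant derivative, kept in medium with 50 µM TMZ. R-U87MG cells were transfected with a non-targeting siRNA (si-NC) or with si-HDAC6, U87MG cells with si-NC or with si-LINC00461, and RNA was taken after 72 h; whether TMZ was present during transfection is not stated. The resistant line is a single selected population of cells. The deposited values of each line also appear to have been scaled as a separate pair, which is inferred from the values. The line, its drug history and anything else particular to that pair therefore cannot be told apart.

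TMZ leaves methyl groups mainly on the N7 of guanine, the N3 of adenine and the O6 of guanine. O6-methylguanine is the most toxic of them: MGMT removes the methyl group in a single step, and where it stays, mismatch repair recognises the wrongly paired base again and again, which ends in strand breaks and cell death. N7 and N3 lesions are cut out by the glycosylase MPG and finished by base excision repair with PARP1, and methyl groups on N1 of adenine and N3 of cytosine are oxidised away by ALKBH2 and ALKBH3. In clinical GBM, loss of MGMT is most often tied to methylation of CG sites in its promoter, and loss of mismatch repair is a known route to TMZ resistance.

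MGMT had almost no RNA. MPG and PARP1 had the largest and next largest differences between the lines among the 7 repair genes compared. The promoters of MGMT, of MPG and of PARP1 are therefore shown. Each is the 300 bases from 250 before to 50 after the start site in RefSeq on GRCh38.p14, written 5′ to 3′ on the strand of the gene, with every CG in capitals. They lie at chr10:129466991-129467290 on the plus strand, chr16:77975-78274 on the plus strand and chr1:226408044-226408343 on the minus strand.
MGMT: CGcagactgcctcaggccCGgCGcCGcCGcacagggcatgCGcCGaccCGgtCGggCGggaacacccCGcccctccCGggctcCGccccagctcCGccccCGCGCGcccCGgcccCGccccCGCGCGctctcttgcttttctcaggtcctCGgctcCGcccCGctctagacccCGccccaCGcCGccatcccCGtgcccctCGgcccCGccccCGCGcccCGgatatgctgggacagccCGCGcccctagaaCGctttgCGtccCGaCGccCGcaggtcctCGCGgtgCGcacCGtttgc
MPG: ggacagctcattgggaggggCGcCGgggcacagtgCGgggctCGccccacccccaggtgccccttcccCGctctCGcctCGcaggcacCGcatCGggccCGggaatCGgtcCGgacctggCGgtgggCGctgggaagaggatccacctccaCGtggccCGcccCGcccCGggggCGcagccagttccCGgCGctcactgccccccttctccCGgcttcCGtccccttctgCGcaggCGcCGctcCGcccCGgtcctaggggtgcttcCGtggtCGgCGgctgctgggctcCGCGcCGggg
PARP1: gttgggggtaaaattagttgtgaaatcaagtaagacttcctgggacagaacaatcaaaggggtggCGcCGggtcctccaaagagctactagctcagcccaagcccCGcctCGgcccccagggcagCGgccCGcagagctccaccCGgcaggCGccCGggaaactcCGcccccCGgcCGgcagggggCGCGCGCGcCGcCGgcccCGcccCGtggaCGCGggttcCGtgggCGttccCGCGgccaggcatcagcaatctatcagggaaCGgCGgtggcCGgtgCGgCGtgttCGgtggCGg
The MGMT sequence holds 45 CG sites, more than 96.5% of the 35116 promoters of that table, whose median was 14. MPG has 34 and PARP1 33. The letters GGGCGG, the core of the GC box bound by Sp1-type factors, occurred on either strand 8 times in MGMT, 3 times in MPG and 2 times in PARP1, and were present in 45.0% of all promoters. DNA methylation and factor binding were not measured in these cells.

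The libraries held 12596072 to 20027866 fragments assigned to genes. The siRNAs could be checked on their targets: si-HDAC6 took HDAC6 from 296 to 67 counts in R-U87MG, or −1.74 on the log2 scale (95% counting interval −2.15 to −1.36), and si-LINC00461 took LINC00461 from 363 to 73 counts in U87MG, or −2.12 (−2.51 to −1.76). The mesenchymal genes VIM and CD44 were abundant in every library. NES, on the same marker list, was expressed in all of them, with 441 to 854 counts. SOX2 had 0 to 4 counts and GFAP, the astrocyte filament, 0 to 13, so SOX2 and GFAP were near absent. CDKN2A and MTAP, which are deleted in U87MG, had 0 to 9 counts. Of markers of other cells, PTPRC had 0 to 3 counts and EPCAM 20 to 28, while PECAM1 went from 16 to 433 and ALB from 5 to 470, both highest in U87MG si-LINC00461. Levels below are normalized CPM after TMM scaling over the 4 libraries, and intervals are exact 95% intervals that cover counting error only. With 1 library per condition there is no replicate check of any difference and no test, and a bulk library cannot tell fewer expressing cells from less RNA per cell.

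MGMT (ENSG00000170430, chr10:129467184-129768007 on the plus strand, GRCh38), the enzyme of direct reversal, was close to absent in both lines. Its counts were 6 in R-U87MG si-NC, 0 in R-U87MG si-HDAC6, 2 in U87MG si-NC and 1 in U87MG si-LINC00461. These are levels of 0.328, 0, 0.109 and 0.0622 CPM, and the exact interval of the 0 ends at 0.266 CPM. Of the 13351 genes compared, 98.0% to 99.9% had more counts than MGMT in the same library. The ratio of the control libraries, 6 counts against 2, was 1.38 on the log2 scale with an interval from −0.89 to 4.93, so that a difference between the lines was not detectable at this depth. After si-HDAC6 it had 0 counts against 6, and the interval of that ratio reaches up to 0.16 on the log2 scale, so a difference was not detectable there either and no fold is given. U87MG si-NC and U87MG si-LINC00461 were both under the floor of 3 counts, and their ratio is not given. MGMT was thus at the edge of detection in the resistant and in the parental cells. Dense CG sites are not particular to its promoter: that of MSH3 holds 37 and those of MSH6 hold 26 to 39. Both of these genes had RNA in every library. Whether CG content bears on the level of any of these genes was not tested.

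Among the 3 mismatch recognition and cleavage genes, the control libraries of the 2 lines differed by less than 2-fold. MSH3 and MSH6 each pair with a shared MutS partner: MSH6 makes the complex that reads base mismatches such as O6-methylguanine with thymine, and MSH3 the complex that reads small loops. PMS2 is the nuclease subunit of the MutL complex that cuts the strand to be replaced.

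MSH6 (ENSG00000116062, chr2:47695530-47810101, plus strand) was the most abundant of them, at 94.3 CPM in R-U87MG si-NC, 83.8 in R-U87MG si-HDAC6, 124 in U87MG si-NC and 99.9 in U87MG si-LINC00461. Both resistant libraries lay below both parental ones. The log2 ratio of the controls, R-U87MG over U87MG, was −0.39 (−0.48 to −0.30). MSH3 (ENSG00000113318, chr5:80654648-80876460, plus strand) went the other way, with levels of 19.9, 19.3, 14.5 and 14.4 CPM in the same order of libraries and a log2 ratio of the controls of 0.46 (0.23 to 0.70).

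The balance of these alternative MutS subunits can be read inside each library, where no scaling between libraries enters. MSH3 made up 17.4% of the counts of MSH3 and MSH6 together in R-U87MG si-NC (exact binomial interval 15.8 to 19.1) and 18.7% in R-U87MG si-HDAC6 (16.7 to 20.9). In U87MG si-NC it made up 10.5% (9.30 to 11.7) and in U87MG si-LINC00461 12.6% (11.1 to 14.2). The intervals of the resistant libraries did not overlap those of the parental libraries. Separation by line was common among single genes. Between the control libraries, 78.2% of all genes had a ratio interval that left out 0. Both libraries of either line lay above both of the other for 73.6% of all genes. How often the share of a gene pair separates the lines in this way was not tested. MSH6 still held most of the counts in every library.

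**Figure D1:**
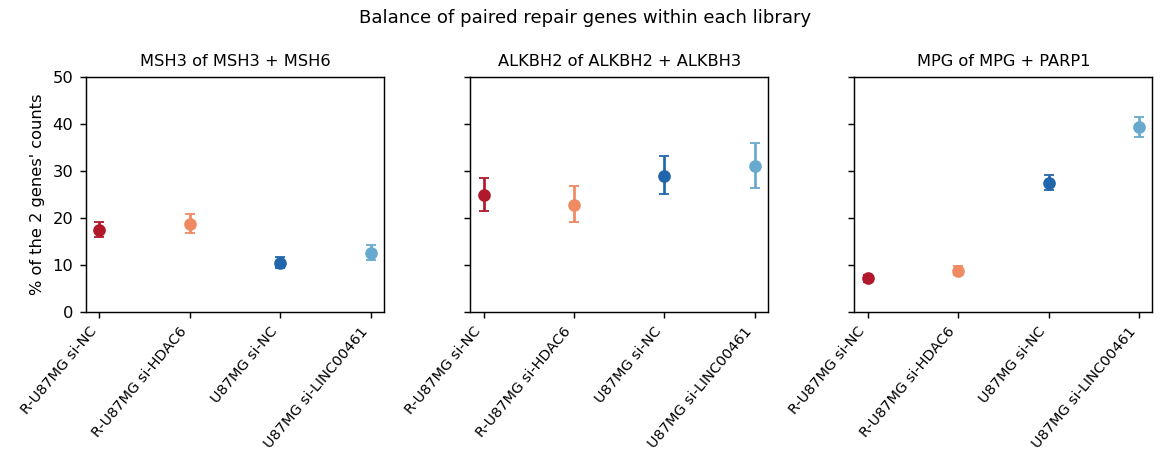
Share of the first gene in the counts of a gene pair (percent, y axis) in each of the 4 libraries, with exact 95% binomial intervals. MSH3 takes 17.4% and 18.7% of MSH3 plus MSH6 in R-U87MG against 10.5% and 12.6% in U87MG, and MPG takes 7.15% and 8.79% of MPG plus PARP1 in R-U87MG against 27.5% and 39.4% in U87MG.

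PMS2 (ENSG00000122512, chr7:5973239-6009125, minus strand) had levels of 12.4 CPM in R-U87MG si-NC, 11.7 in R-U87MG si-HDAC6, 9.55 in U87MG si-NC and 13.6 in U87MG si-LINC00461. The lines overlapped, with U87MG si-LINC00461 above and U87MG si-NC below both resistant libraries. The log2 ratio of the controls was 0.37 (0.08 to 0.67), and between the knockdown libraries of the lines it was −0.21 (−0.52 to 0.09). PMS2 also has near-identical copies: 23.0% of its transcript sequence, cut into runs of 50 bases, is also found in other genes, above all PMS2CL, a pseudogene with 162, 102, 197 and 177 counts. PMS2 held 58.2% of the counts of both in R-U87MG si-NC and 47.0% in U87MG si-NC, and how shared fragments were divided between them is not stated, so its values are uncertain.

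MPG (ENSG00000103152, chr16:77007-85853, plus strand) is the glycosylase that opens base excision repair of N7-methylguanine and N3-methyladenine. Of the 7 repair genes compared, MPG set the lines apart most. Its counts were 333 in R-U87MG si-NC, 277 in R-U87MG si-HDAC6, 892 in U87MG si-NC and 785 in U87MG si-LINC00461, or 18.2, 20.0, 48.7 and 48.8 CPM. Both resistant libraries lay far below both parental ones, and neither siRNA moved the level within its line by more than the counting interval. The ratio of the controls was −1.42 on the log2 scale (−1.60 to −1.23), a level in R-U87MG of 0.375 times that in U87MG. MPG was the single gene of the 7 compared that reached 2-fold in either direction, where 26.5% of all 13351 genes did and 15.4% were at least 2-fold lower in R-U87MG, so 1 of 7 lies near what any gene showed. Between the knockdown libraries of each line the log2 ratio was −1.29 (−1.49 to −1.09).

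PARP1 (ENSG00000143799, chr1:226360691-226408079, minus strand), which senses the single-strand breaks left by base excision and recruits their repair, was higher in the resistant line. Its counts were 4322 in R-U87MG si-NC, 2874 in R-U87MG si-HDAC6, 2354 in U87MG si-NC and 1207 in U87MG si-LINC00461, which are 237, 207, 129 and 75.0 CPM. The lines did not overlap, and the lowest level was that of U87MG si-LINC00461. The log2 ratio of the controls was 0.88 (0.81 to 0.95), 1.84-fold, and PARP1 ranked 1831st of 13351 from the highest ratio. With library totals in place of TMM it was 1.14, past 2-fold.

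MPG and PARP1 act in sequence on the same lesions, and they differed in opposite directions between the lines. Their share, too, has no background of gene pairs drawn from all genes beside it. MPG was 7.15% of the counts of both in R-U87MG si-NC (6.43 to 7.93), 8.79% in R-U87MG si-HDAC6 (7.82 to 9.83), 27.5% in U87MG si-NC (25.9 to 29.1) and 39.4% in U87MG si-LINC00461 (37.3 to 41.6). Per kilobase of annotated exon, PARP1 was the most abundant of the 8 genes in R-U87MG si-NC, at 55.5 normalized CPM per kb against 13.9 for MPG. In U87MG si-NC the order was turned, with 37.2 CPM per kb for MPG and 30.2 for PARP1. The lowest levels per length above MGMT were those of MSH3 and PMS2, at 4.87 and 4.33 CPM per kb in R-U87MG si-NC and 3.54 and 3.35 in U87MG si-NC, and their intervals overlapped in both libraries.

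The oxidative demethylases ALKBH2 and ALKBH3 were nearer to equal between the control libraries than MPG and PARP1. ALKBH2 (ENSG00000189046, chr12:109088188-109093631, minus strand), which works mainly on double-stranded DNA, had 8.43 CPM in R-U87MG si-NC, 8.15 in R-U87MG si-HDAC6, 7.97 in U87MG si-NC and 7.40 in U87MG si-LINC00461. Its log2 ratio of the controls was 0.08, and the interval from −0.26 to 0.42 leaves room for a difference in either direction. ALKBH3 (ENSG00000166199, chr11:43880811-43920266, plus strand), which prefers single-stranded DNA and RNA, had 25.5, 27.6, 19.5 and 16.5 CPM in that order. Both resistant libraries were above both parental ones, with a log2 ratio of the controls of 0.38 (0.18 to 0.59). Between the knockdown libraries of the lines it was larger, at 0.74 (0.51 to 0.97). ALKBH2 made up 24.8% and 22.8% of the counts of the pair in R-U87MG si-NC and si-HDAC6, and 28.97% and 31.0% in U87MG si-NC and si-LINC00461, with overlapping intervals between the controls.

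**Figure D2:**
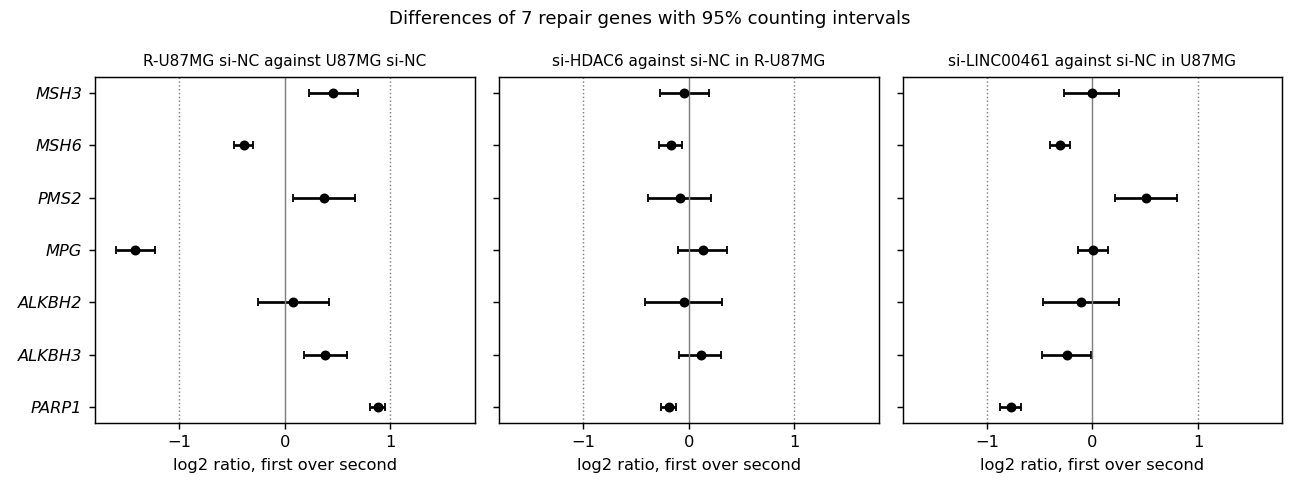
Log2 ratios (x axis) of the 7 genes compared in R-U87MG si-NC against U87MG si-NC, in si-HDAC6 against si-NC and in si-LINC00461 against si-NC, with 95% counting intervals and dotted lines at 2-fold. MPG at −1.42 is the single point past 2-fold, and PARP1 is at 0.88, −0.19 and −0.78.

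Over the 7 genes, the counting interval between the control libraries lay above 0 for MSH3, PMS2, ALKBH3 and PARP1, below 0 for MSH6 and MPG, and held 0 for ALKBH2. That is 6 of 7 where 78.2% of all genes had an interval that left out 0, so that leaving out 0 is the usual case between these libraries. The median log2 ratio of the 7 was 0.37, against 0.01 over all genes. In 6 of 7 genes both libraries of one line lay above both of the other, 4 with R-U87MG higher (MSH3, ALKBH2, ALKBH3 and PARP1) and 2 with U87MG higher (MSH6 and MPG); 73.6% of all genes were ordered by line in this way, 37.5% and 36.1% in these directions. Scaling by library totals shifts the median of all genes to 0.28, and under it the libraries of the lines overlap for MSH6 and no longer for PMS2.

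HDAC6 knockdown in R-U87MG left the 7 genes close to their level in R-U87MG si-NC, the library that also serves the comparison of the lines. None reached 2-fold, as 2.35% of all genes did (1.21% higher and 1.14% lower). The log2 ratios ran from −0.19 (−0.26 to −0.12) for PARP1 and −0.17 (−0.28 to −0.06) for MSH6, the genes whose intervals left out 0, to 0.13 (−0.10 to 0.37) for MPG; 29.6% of all genes had an interval that left out 0, 14.6% above and 15% below it. In between were PMS2 at −0.08, ALKBH2 at −0.05, MSH3 at −0.04 and ALKBH3 at 0.11, and the widest of these intervals, that of ALKBH2, went from −0.41 to 0.31. Among 13 proliferation markers, such as MKI67 and the MCM helicase genes, 12 had an interval below 0 in the same pair of libraries, with a median log2 ratio of −0.23. The part of proliferation in the PARP1 and MSH6 values was not tested.

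LINC00461 knockdown in U87MG was followed by lower PARP1. Its level was 128.5 CPM in U87MG si-NC and 75.0 in U87MG si-LINC00461, a log2 ratio of −0.78 (−0.88 to −0.68), or 0.584 times the control. MSH6 was at −0.31 (−0.40 to −0.21) and ALKBH3 at −0.25 (−0.48 to −0.01), and PMS2 was higher, at 0.50 (0.21 to 0.80). MPG (−0.14 to 0.14), MSH3 (−0.27 to 0.26) and ALKBH2 (−0.47 to 0.25) had intervals around 0. None of the 7 reached 2-fold, against 13.8% of all genes, and no interval lay wholly beyond 2-fold, against 7.5%. The intervals of 4 genes left out 0, against 65.7% of all genes. All 13 proliferation markers were at least 2-fold lower in the same library, with log2 ratios from −2.86 for MKI67 to −1.30 for MCM4 and a median of −1.94; in the comparison of the lines all 13 were higher in R-U87MG, by 0.50 to 1.39. PARP1 was thus low or high in the same libraries as these markers, and the part of proliferation in its level was not tested.

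The partners that carry out the later steps were described by 3 wider lists. Of 19 mismatch repair partners (the other MutL and MutS genes, the exonuclease, the sliding clamp and its loader, the single-strand binding proteins, polymerase delta and the ligase), 17 were compared, since MSH4 and MSH5 were too low. Between the control libraries 4 were at least 2-fold higher in R-U87MG and none was 2-fold lower, beside 11.1% and 15.4% of all genes, and the median log2 ratio was 0.43. The 4 were PCNA, the sliding clamp, with 3891 fragments in R-U87MG against 1157 in U87MG (1.75), the clamp loader subunits RFC3 with 567 against 177 (1.68) and RFC4 with 516 against 228 (1.18), and EXO1, the exonuclease that removes the mismatched strand, with 773 against 261 (1.57). Some of the partners, such as PCNA and its loader, also serve DNA replication. Of the 17, 13 lay above U87MG in both R-U87MG libraries, as did all 13 proliferation markers and 37.5% of all genes. The part of proliferation in the levels of the partners was not tested.

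In U87MG si-LINC00461, 5 of the 17 partners were at least 2-fold lower than in U87MG si-NC and none was 2-fold higher, beside 8.46% and 5.3% of all genes. They were EXO1 with 50 counts against 261 (log2 ratio −2.19), RFC3 with 39 against 177 (−1.98), the nick-sealing ligase LIG1 with 139 against 446 (−1.49), RFC4 with 81 against 228 (−1.30) and POLD1, the catalytic subunit of polymerase delta, with 308 against 809 (−1.20). The median of the partners was −0.51, against −0.11 for the 7 genes described above and −0.01 for all genes. After si-HDAC6 none of the 17 reached 2-fold, beside 2.35% of all genes. Their ratios ran from −0.38 for EXO1 to 0.25 for POLD4, a small subunit of polymerase delta.

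**Figure D3:**
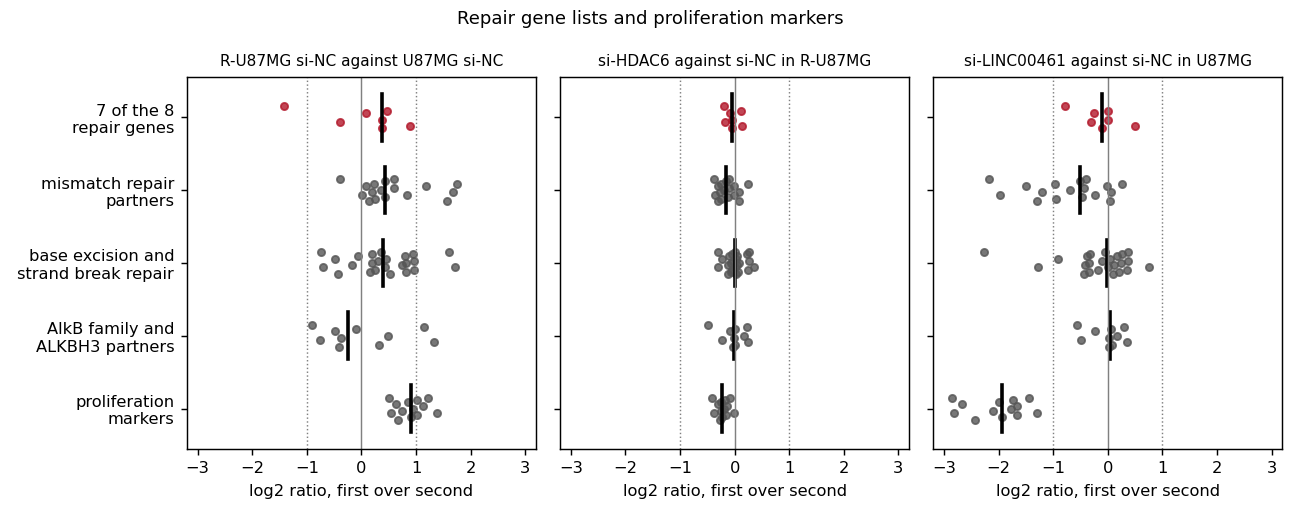
Log2 ratio (x axis) of each gene of the repair lists and of the proliferation markers in the 3 comparisons, with 1 point per gene, a bar for the median and dotted lines at 2-fold. Mismatch repair partners have medians of 0.43, −0.16 and −0.51 and proliferation markers of 0.91, −0.23 and −1.94.

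Of 25 genes of base excision and single-strand break repair, 24 were compared, NEIL1 being too low. In R-U87MG si-NC, 2 were at least 2-fold higher than in U87MG si-NC and none was 2-fold lower, beside 11.1% and 15.4% of all genes, with a median log2 ratio of 0.39; a count of 2 of 24 is no larger than the share of all genes. APEX1, the endonuclease that cuts at the abasic site that a glycosylase such as MPG leaves, had 2139 counts against 651 (1.72), and NEIL3, a glycosylase for oxidised bases made in dividing cells, had 491 against 161 (1.61). R-U87MG si-NC had less RNA of MPG, which opens the pathway for alkylated bases, and more of APEX1 and PARP1, which serve the next steps, than U87MG si-NC. After si-LINC00461, NEIL3 with 29 counts against 161 (−2.27) and FEN1, the flap nuclease of long-patch repair, with 538 against 1479 (−1.27) were at least 2-fold lower, close to the 8.46% of all genes that were, and the median was −0.02. After si-HDAC6 the list ran from −0.31 for NEIL3 to 0.36 for TDG, a thymine glycosylase, with a median of 0.00.

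The other members of the AlkB family, together with the ASCC helicase complex that serves ALKBH3, made a list of 10 genes, all compared. Between the control libraries ALKBH8, a tRNA methyltransferase, with 421 counts against 167 (1.33) and ALKBH1, a nucleic acid demethylase, with 394 against 178 (1.15) were at least 2-fold higher in R-U87MG, beside 11.1% of all genes, none was 2-fold lower, beside 15.4%, and the median of the list was −0.24. The lowest was ALKBH5, the demethylase of N6-methyladenosine in RNA, at −0.90. No gene of the list reached 2-fold after si-HDAC6 or si-LINC00461, beside 2.35% and 13.8% of all genes, with ratios from −0.49 for ALKBH8 to 0.25 for ALKBH6 after si-HDAC6, and from −0.57 for FTO to 0.35 for ALKBH6 after si-LINC00461.

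Some of the 8 genes share their start region or their exons with another gene, which allows the neighbour to be set beside them. PMS2 and AIMP2, a scaffold protein of tRNA synthetases, have starts 120 bases apart on opposite strands without overlap. AIMP2 had 41.0, 42.8, 19.5 and 15.5 CPM in R-U87MG si-NC, R-U87MG si-HDAC6, U87MG si-NC and U87MG si-LINC00461, a log2 ratio of the controls of 1.07 (0.89 to 1.26) against 0.37 for PMS2. After si-LINC00461 it was at −0.33 (−0.57 to −0.09), while PMS2 was at 0.50.

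The gene that starts 652 bases from MPG is RHBDF1, an inactive rhomboid protease. This distance is from the GENCODE start of MPG at chr16:77007. The MPG promoter printed above, chr16:77975-78274, is set on a RefSeq start further into the gene. RHBDF1 had 258, 258, 655 and 828 counts, or 14.1, 18.6, 35.8 and 51.5 CPM. Both resistant libraries lay below both parental ones, as for MPG. Its log2 ratio of the controls, −1.34 (−1.55 to −1.13), lay within the interval of MPG. NPRL3 overlaps MPG on the opposite strand over 1583 bases. Of the 50-base runs of MPG, read on either strand, 24.5% are found in NPRL3. NPRL3 had 48 to 74 counts and a log2 ratio of −0.27 (−0.79 to 0.23). MPG held 84.5% of the counts of both genes in R-U87MG si-NC and 92.3% in U87MG si-NC, and the strand setting of the counting is not stated. In the 30 compared genes within 1 Mb of MPG the median log2 ratio was −0.54, where 7 were lower and 3 higher in R-U87MG by 2-fold or more, beside 15.4% and 11.1% of all genes. The 9 compared genes within 1 Mb of ALKBH3 had a lower median still, −0.61, with 3 lower by 2-fold or more, while ALKBH3 itself was at 0.38. These windows were looked at after the values were seen.

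**Figure D4:**
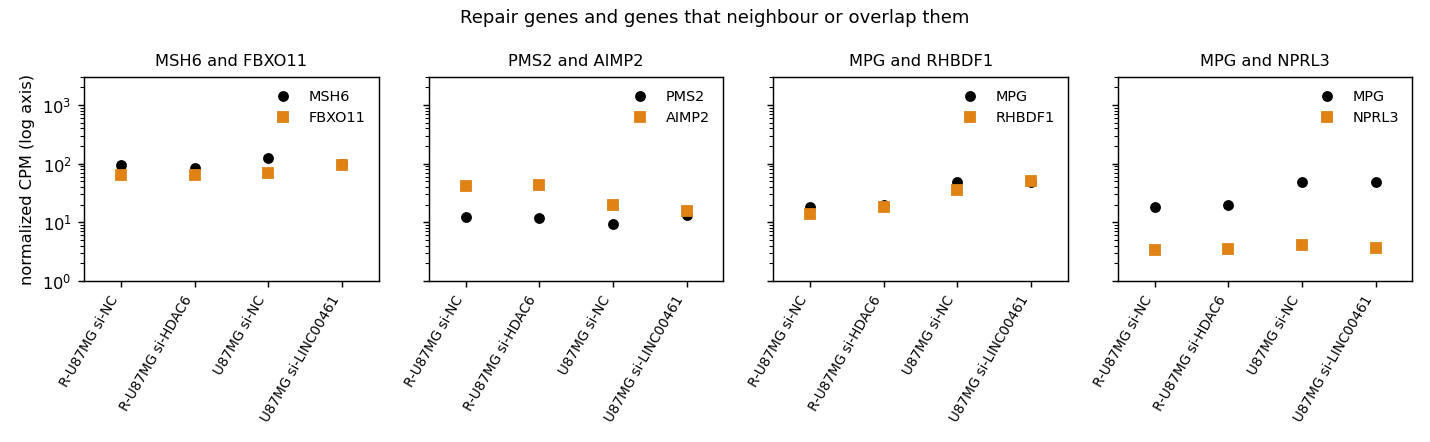
Normalized CPM (log axis) of MSH6, PMS2 and MPG (circles) and of the genes that start near them or overlap them (squares) in the 4 libraries. MPG and RHBDF1 are both lower in R-U87MG, with log2 ratios of the controls of −1.42 and −1.34, while NPRL3 has −0.27.

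MSH6 overlaps FBXO11, a subunit of a ubiquitin ligase, over 20786 bases on the opposite strand. Of the MSH6 runs, 14.2% are found in other genes, most of all in FBXO11. FBXO11 had 63.9, 63.2, 68.7 and 94.9 CPM and a log2 ratio of the controls of −0.10 (−0.22 to 0.01). After si-LINC00461 it was at 0.47 (0.36 to 0.57), while MSH6 was at −0.31. ALKBH2, ALKBH3 and PARP1 shared 0.0406%, 1.02% and 2.43% of their runs with other genes, so their counts depend little on how shared fragments were divided.

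Over the 4 libraries, the genes whose log2 levels, centred on their own mean, were most like those of MPG were PDXDC2P-NPIPB14P, TRPT1, TMSB10, POMT1 and CABIN1. Their Euclidean distances from MPG were 0.0355, 0.0428, 0.0676, 0.0745 and 0.0809 on the log2 scale among 13351 genes. TMSB10, an actin-binding peptide, was the most abundant of them, with 323 CPM in R-U87MG si-NC, 351 in R-U87MG si-HDAC6, 854 in U87MG si-NC and 814 in U87MG si-LINC00461. Such closeness over 4 points describes these libraries and nothing further.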

How the data were processed

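The authors made strand-specific RNA-seq libraries of 4 cultures, 1 per condition. Per the labels, the submitters' processing notes name bcl2fastq, Trimmomatic 0.36, HISAT2 and the genome GRCh38.p13; the counting program and its strand setting are not given in the sources used here. In the deposited tables each Ensembl gene has an estimated count that appears to have been rescaled, with the libraries of each line scaled as a separate pair. This scaling was inferred from the values themselves. The factor was 0.869 in R-U87MG si-NC and 1.15 in R-U87MG si-HDAC6, and 0.939 in U87MG si-NC and 1.06 in U87MG si-LINC00461. Each value was divided by it and rounded to a whole fragment, which undoes that scaling; 93.4% to 94.1% of the values above 0 lay within 0.02 of a whole number, and all values of the 8 genes did.

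Of 58226 gene IDs, 57888 are in GENCODE 29 (GRCh38), from which symbols and positions were taken. Counts were scaled by TMM over the 4 libraries (edgeR 4.0.16 in R 4.3.3). Log2 ratios were taken of normalized counts plus 0.5, which understates differences of low genes, for genes with a mean of at least 1 CPM. A ratio was called at 2-fold. Exact binomial (Clopper-Pearson) 95% intervals cover counting error only, and PCR reads without molecular identifiers are not independent molecules; a library's 3 counts correspond to 0.164 to 0.216 normalized CPM. No test of a condition was possible with 1 library each, and samples were not grouped further. The ratio was tested on simulated data with known folds for 200 genes.

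The 8 genes and all lists were chosen with earlier results of these data known. All 8 genes are named, then list genes that reached 2-fold (otherwise the highest and the lowest), genes that start within 1 kb of a member or overlap it on the opposite strand, and the 5 genes most like the member with the largest ratio. Some mismatch repair genes and neighbouring genes are not reported here. Promoters were matched for 8 of 8 genes in the RefSeq table. Alternatives were library totals, DESeq2 1.42.0 size factors, upper-quartile and pairwise scaling, other pseudocounts, filters and folds, thinning, the deposited values, and other libraries of the lines. Python 3.11.15, numpy 2.4.6, pandas 2.3.3, scipy 1.17.1 and matplotlib 3.10.9 were used.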

Additional observations from a re-analysis of the deposited data

How the results depend on the processing

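No paired analysis was possible because each condition has 1 library, and for the same reason no replicate could be left out. Of the log2 ratios of the 8 genes recomputed under the alternatives, 179 stayed within the counting interval of the reported value and 11 moved out of it. No 2-fold difference among these turned its direction. MGMT was left out for the knockdown libraries of each line and for the mean of both libraries. Between the knockdown libraries it had 0 counts against 1, a ratio of the other sign that cannot be read at this depth. Between the lines 1 gene reached 2-fold, and 2 did with library totals, with the knockdown libraries of each line and with the mean of both libraries of a line (MPG and PARP1 each time, PARP1 at 1.14, 1.47 and 1.17), with a 1.5-fold threshold (MPG and PARP1), and without the filter on low counts (MPG and MGMT, the latter on 6 against 2 counts); at 3-fold the number was 0. For si-HDAC6 it was 0, and 1 without the filter (MGMT, 6 counts against 0). For si-LINC00461 it was 0, and 1 at 1.5-fold (PARP1). Over all genes, 3055 were higher and 3393 lower of 13351 between the lines at 1.5-fold. With library totals these were 2402 and 1509 of 13348, and without the filter 4741 and 5764 of 25242. After si-HDAC6 without the filter they were 2443 and 3021 of 25242. After si-LINC00461 at 1.5-fold they were 1856 and 2297 of 13351. No such counts are given for the knockdown libraries or the mean of both libraries. The number of genes ordered by line was 6, and 5 with upper-quartile scaling or thinned libraries, where ALKBH2 overlapped. Library totals move the median of all genes between the lines from 0.01 to 0.28 and the share of higher genes among those called from 41.9% to 61.4%. Under them PARP1 stays above and MPG below that median. Values near 0 changed sign under some alternatives: between the lines ALKBH2 (−0.01 to 0.34) and PMS2 (−0.21 to 0.64), and after si-LINC00461 MPG (−0.04 to 0.05) and MSH3 (−0.02 to 0.19). Depth limits MGMT most, at 0 to 6 counts per library.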
